A study of Mus musculus with 54 samples.

Results

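Myeloid cells of the naive cornea were sorted as 4 pools, and these are 4 of the 54 samples of the series. They were chosen by their labels as the sorted corneal resident myeloid cells (CRMCs), with 1 null and 1 wild-type pool in each of 2 mouse strains. The null pool of the first strain (KO) came from 12 corneas of 6 mice with a gene trap in the miR-183/96/182 cluster (miR-183C GT/GT, mixed 129S2 and C57BL/6 background), which inactivates the cluster in every cell that uses it. Its control (KO-strain WT) came from 14 corneas of 7 miR-183C+/+ mice. The null pool of the second strain (MS-CKO, myeloid-specific) came from 20 corneas of 10 mice that were LysM-Cre(+/-) and miR-183C f/f, and its control (MS-strain WT) from 20 corneas of 10 littermates that were LysM-Cre(-/-) and miR-183C f/f. All mice were untreated males of 8 to 12 weeks and carried Csf1r-EGFP, in which the Csf1r promoter drives a green fluorescent protein in monocytes, macrophages and dendritic cells. LysM-Cre sits in the Lyz2 gene and interrupts that copy of it, so MS-CKO mice have 1 interrupted copy. Pools of spleen cells sorted the same way from the same 4 genotypes, and 3 whole cornea libraries of the MS strain (1 of WT and 2 of MS-CKO mice), served as a scale for both strains. Each pool is 1 library, so no genotype had a replicate within its strain, and genotype and pool cannot be told apart within a strain.

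Resident macrophages and dendritic cells of the cornea take up debris, present antigen on MHC class II and call in other leukocytes through chemokines. A microRNA pairs through its seed, the bases near its 5′ end, with matching letters in the 3′ untranslated region (UTR) of mRNAs and lowers their stability and translation, so loss of a microRNA is usually read for targets that rise. The 3 microRNAs of the cluster are shown because the study's question was which mRNAs of these cells respond to their loss. The sequences are those of RefSeq (GRCm38.p6), on the minus strand of chromosome 6, written 5′ to 3′ with the seed, bases 2 to 8, in capitals.
miR-183-5p: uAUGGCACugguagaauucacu
miR-96-5p: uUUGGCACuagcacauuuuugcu
miR-182-5p: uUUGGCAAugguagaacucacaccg
They lie at chr6:30169711-30169732, chr6:30169506-30169528 and chr6:30165962-30165986. The capitals show related seeds, of which no pair is identical, so each microRNA matches its own 7-base site in a UTR, namely GTGCCAT for miR-183-5p, GTGCCAA for miR-96-5p and TTGCCAA for miR-182-5p.

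The null pools held reads from more genes than the WT pools in both strains. At least 10 counts were found for 3030 genes in the KO pool against 1274 in its WT pool, and for 5910 in the MS-CKO pool against 2799 in its WT pool. Total counts were also higher in the null pools (4214416 against 2261266 and 10803867 against 6569553). Thinned to the same depth of 2261266 counts, the KO and MS-CKO pools still showed 2944 and 5588 genes against 1274 and 2664, which is 2.31-fold and 2.10-fold more. In the same sort of spleen cells the null pool held 1.52-fold as many genes in the KO strain and 0.908-fold as many in the MS strain, so there the strains went opposite ways.

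**Figure D1:**
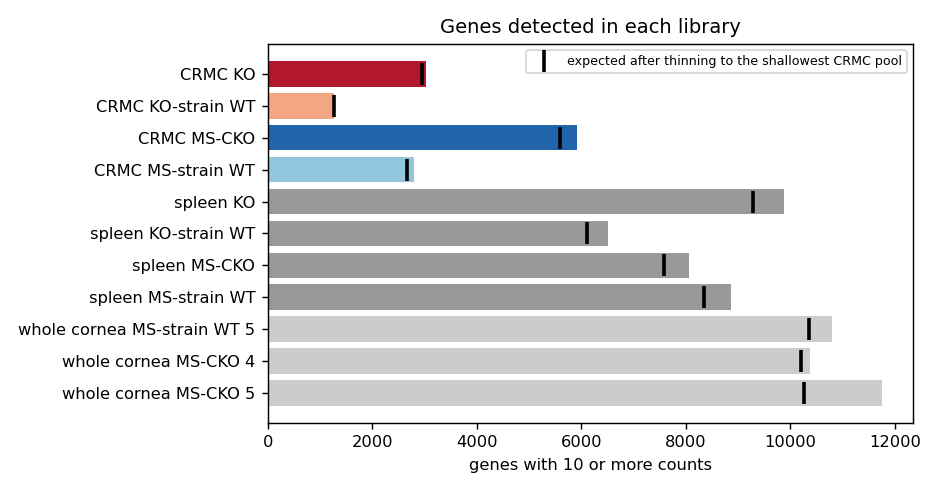
Number of genes with at least 10 counts in each sorted pool and in the whole cornea libraries, with a tick for the number expected at 2261266 counts. The 4 CRMC pools lie between 1274 and 5910 genes, below each of the 4 spleen pools (6508 to 9884) and the 3 whole cornea libraries (10387 to 11760).

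CRMC reads fell on few genes with many reads each. The median count of a detected gene was 675 to 1102.5 in the CRMC pools, against 217 to 422 in the spleen pools and 69 to 120 in whole cornea. Of 7588 genes with at least 10 counts in any CRMC pool, 485 (6.39%) reached 10 counts in all 4 and 4063 in 1 pool alone. In the spleen pools 4892 of 11788 genes (41.5%) reached it in all 4. A gene of these pools was therefore often read many times in 1 library and not at all in the next, and a count of 0 limits its level in the CRMC pools to 0.278 to 1.33 CPM (counts scaled to a common library total), the level that 3 counts would give. Intervals and limits here cover counting error only. The study states no use of molecular identifiers, so repeat reads of 1 molecule may be counted as separate.

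Csf1r, the receptor of a macrophage growth factor whose promoter marked the cells, was read in every pool. It stood at 1029 CPM in KO, 858 CPM in KO-strain WT, 182 CPM in MS-CKO and 322 CPM in MS-strain WT, against 0 to 1.64 CPM in the 3 whole cornea libraries. The KO-strain pools were the higher ones, and the null and WT pools overlapped. Of 30 mononuclear phagocyte genes, 27 reached 10 counts in some CRMC pool and 14 in all 4, and the summed level was 25253, 35025, 8296 and 9853 CPM in the same order. Several defining genes were absent from single pools. Cx3cr1, the fractalkine receptor, had 0 counts in both KO-strain pools against 640 in MS-CKO and 2045 in MS-strain WT. Adgre1, which encodes F4/80, had 0 counts in KO and in MS-strain WT but 2396 in KO-strain WT. Ptprc, which encodes the pan-leukocyte protein CD45, had 0 counts in KO, 106 in KO-strain WT, 1139 in MS-CKO and 2488 in MS-strain WT. Phagocyte genes are therefore compared here where all 4 pools had counts.

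RNA of the corneal epithelium was higher in the null pools of both strains. A list of 40 genes of the corneal epithelium took 6.39% of counts in KO (95% exact interval 6.36 to 6.41) against 1.87% in KO-strain WT (1.86 to 1.89), and 5.54% in MS-CKO (5.53 to 5.56) against 1.34% in MS-strain WT (1.33 to 1.34). The ratio was 3.41 in the KO strain and 4.15 in the MS strain, and the null and WT pools did not overlap. In whole cornea the list took 11.8% ± 0.207 (SD, n = 3, genotypes mixed), so the null pools stood at 53.9% and 46.8% of the level of whole cornea and the WT pools at 15.8% and 11.3%. The spleen pools had 0.0537% to 0.0951%. A list of 11 genes of conjunctiva and limbus epithelium, of which 3 reached 10 counts in a CRMC pool, did not share this rise. It summed to 1476 CPM in KO against 2604 CPM in KO-strain WT and 864 CPM in MS-CKO against 938 CPM in MS-strain WT. The ratios were 0.567 and 0.921 (0.724 and 1.19 with TMM). In bulk pools of sorted cells, more cells of a type and more RNA per cell cannot be told apart.

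All 12 genes of the list with at least 10 counts in all 4 pools were higher in the null pool of both strains, and 7 of them by at least 2-fold. Of all 485 genes 23.3% were higher in both, and 6.39% by at least 2-fold. Krt12, the keratin that marks differentiated corneal epithelium, stood at 22612 CPM in KO, 4599.6 CPM in KO-strain WT, 13244 CPM in MS-CKO and 2975 CPM in MS-strain WT. Krt5, the keratin of basal epithelial cells, stood at 7469, 3385, 6598 and 284 CPM in the same order. Both null pools lay above both WT pools for either keratin, and the gap was wider in the MS strain for Krt5. Aldh3a1, the abundant crystallin-like aldehyde dehydrogenase of the cornea, stood at 7217, 3293, 17508 and 5539 CPM, again without overlap. Tkt, a transketolase that is also abundant in corneal epithelium, stood at 3528, 1667, 3785 and 849 CPM. Krt14, the partner of Krt5, was level in the KO strain and higher in MS-CKO, with 773 and 742 CPM in the KO strain and 783 and 255 CPM in the MS strain.

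Some junction genes of the epithelium were read in the null pools and not in WT, and others, such as Perp, in all 4 pools. Pkp1, a desmosomal plakophilin, had 4170 counts in KO and 2162 in MS-CKO and 0 in both WT pools, which is at least 746-fold and at least 438-fold higher when the WT pool is set to 3 counts. Jup, the plakoglobin of desmosomes and adherens junctions, had 1968 and 6935 counts in the null pools and 0 in both WT pools. Of the 29 list genes with at least 10 counts in a pool of each strain, 26 were higher in the null pool of both and 2 lower, against 49.0% higher and 11.1% lower among all 2630 such genes. The lower ones were Muc4, a membrane mucin, and Ly6g6c, a small surface protein.

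Stromal RNA stood above its level in whole cornea in every pool. The keratocyte list took 1.15% of counts in KO, 1.69% in KO-strain WT, 7.43% in MS-CKO and 8.58% in MS-strain WT, against 0.346% ± 0.00847 (SD, n = 3, genotypes mixed) in the MS-strain whole cornea libraries. The MS-strain pools lay far above the KO-strain pools, and both null pools were below their WT pool (ratios 0.682 and 0.867), although with TMM the ratios were 0.871 and 1.12. T and NK cell and B cell genes did not reach 10 counts in any CRMC pool. Neutrophil genes summed to 540 CPM in KO, 0.442 CPM in KO-strain WT, 34.8 CPM in MS-CKO and 0 CPM in MS-strain WT. The part of epithelial, stromal and neutrophil RNA in the comparisons that follow was not tested, apart from scaling without the epithelial and stromal lists.

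**Figure D2:**
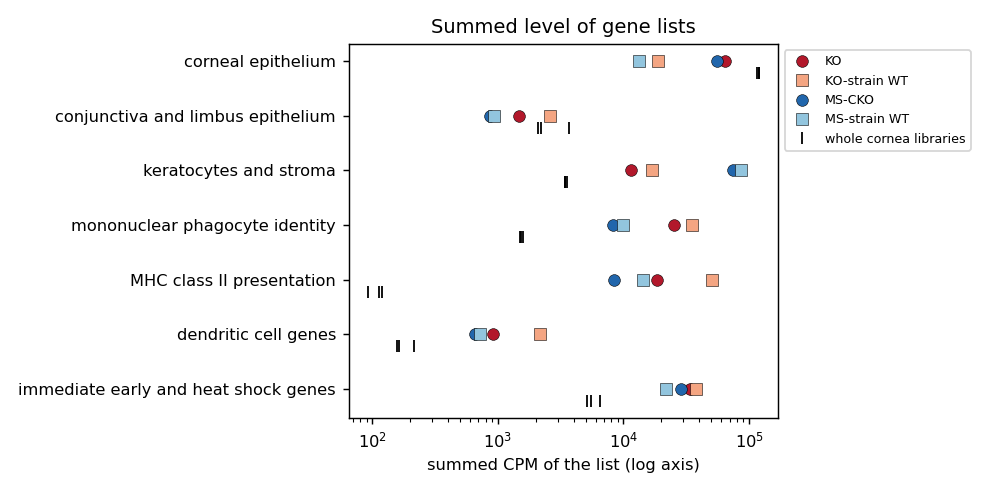
Summed level (CPM, log axis) of 7 gene lists in the 4 CRMC pools (points), with the 3 whole cornea libraries for scale (ticks). The corneal epithelium list is higher in the null pool of both strains (ratios 3.41 and 4.15). The conjunctiva and limbus list is lower in both by library totals (ratios 0.567 and 0.921) but not with TMM (0.724 and 1.19). The phagocyte list is lower in both by library totals (ratios 0.721 and 0.842) but not with TMM (0.921 and 1.09).

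The targeted genes gave no check of the labels. Mirc35hg, the host transcript of the cluster, and Mir183, Mir96 and Mir182 had 0 counts in the 4 CRMC and the 4 spleen pools, null and WT alike, and Mirc35hg had 0 to 7 counts in whole cornea. Lyz2, the lysozyme gene of phagocytes that carries Cre in MS-CKO mice, stood at 2368 CPM in KO, 933 CPM in KO-strain WT, 77.5 CPM in MS-CKO and 19.8 CPM in MS-strain WT. It was higher in the null pool of both strains, with the KO-strain pools far above the MS-strain pools, so the groups overlapped. The MS-CKO pool was thus not below its WT pool.

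Of the 485 genes with at least 10 counts in all 4 pools, 284 (58.6%) moved the same way in both strains. Of these 113 (23.3%) were higher in the null pools and 171 (35.3%) lower, when counts were divided by library totals. With TMM factors (the trimmed mean scaling of edgeR) the split turned to 154 higher and 122 lower, since those factors raise each null/WT ratio by 0.35 to 0.37 on the log2 scale. In both strains 93 genes (19.2%) differed by at least 2-fold the same way, 31 higher (6.39%) and 62 lower (12.8%), which became 56 and 39 with TMM. In the KO strain alone 95 (19.6%) were at least 2-fold higher and 192 (39.6%) lower, and in the MS strain 134 (27.6%) and 114 (23.5%). Another 59 genes (12.2%) moved by at least 2-fold in opposite ways. The spread of single ratios was wide: the SD of the log2 ratio was 2.28 in the KO strain and 2.13 in the MS strain (1.71 and 1.44 in spleen), and across the 485 genes, which are not independent, the ratios of the strains had a Pearson r of 0.12 and a Spearman rho of 0.17. The pools share no mice, but the points share library composition.

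**Figure D3:**
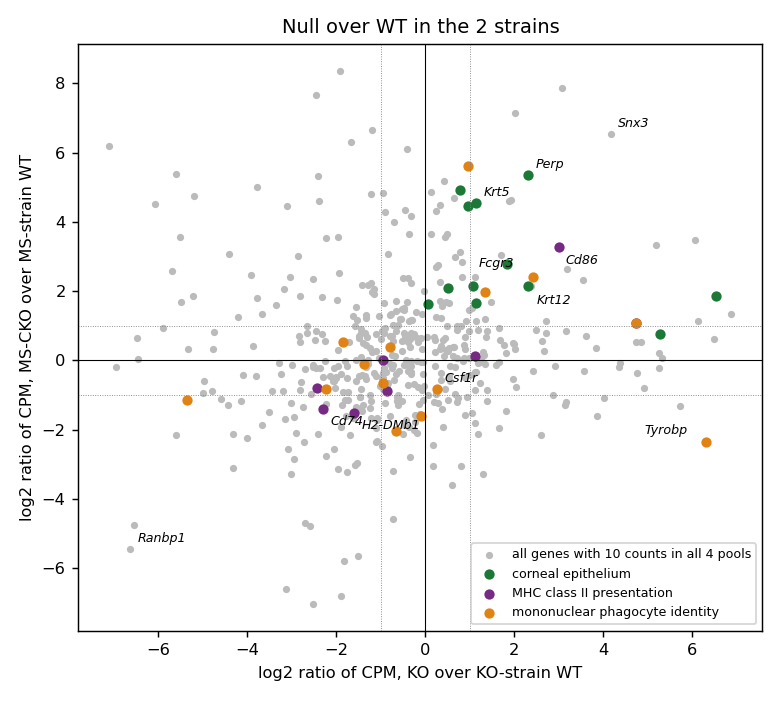
Null/WT ratio of CPM in the KO strain (x) and the MS strain (y), log2 axes, for the 485 genes with at least 10 counts in all 4 pools. Colours mark the epithelial, MHC class II and phagocyte lists and dotted lines a ratio of 2 or 0.5. The 12 epithelial genes lie in the upper right quadrant, with Krt12 at 4.92-fold and 4.45-fold, and Cd74 lies in the lower left at 0.203-fold and 0.379-fold.

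The 10 genes with the highest null/WT ratios in both strains, ranked by the smaller of their ratios, were Snx3, Psma1, Tbca, Hdgf, Cd86, Wwp1, Fcgr3, Perp, Myl12a and Krt12. They encode proteins of diverse roles. Cd86, the costimulatory ligand by which antigen-presenting cells activate T cells, stood at 593 CPM in KO, 74.3 CPM in KO-strain WT, 71.6 CPM in MS-CKO and 7.46 CPM in MS-strain WT. Its ratios were 7.98 (95% exact interval 6.82 to 9.38) and 9.61 (7.19 to 13.1), close to each other, while the KO-strain WT pool was at the level of the MS-CKO pool. Fcgr3, a low-affinity receptor for IgG, stood at 584, 109, 179 and 34.1 CPM, a ratio of 5.37 and 5.26, and here both null pools lay above both WT pools. Snx3, a sorting nexin of endosomes, stood at 542, 30.1, 225 and 2.44 CPM, and the MS-strain WT pool held only 16 of its counts. Psma1, a subunit of the proteasome core, stood at 415, 6.19, 200 and 18.0 CPM, likewise low in both WT pools.

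Wwp1, Tbca, Myl12a, Hdgf and Perp belong to the ubiquitin system, the cytoskeleton, the nucleus and the epithelium. Wwp1, a ubiquitin ligase, had ratios of 9.03 and 6.26, Tbca, a tubulin folding factor, 36.5 and 9.99, and Myl12a, a regulatory light chain of myosin, 11.7 and 4.95. Hdgf, a nuclear growth factor, stood at 336, 39.8, 500.1 and 2.13 CPM, and its MS-strain WT pool held 14 counts. Perp, a desmosomal protein of stratified epithelia, stood at 2964, 594, 734 and 18.0 CPM. For each of these the null pools were above both WT pools. Of the 31 genes, 7 were in the epithelial list, which held 12 of the 485 genes, and 5 had names in Rpl or Rps, those of cytosolic ribosomal proteins. Of the 485 genes 50 (10.3%) had such names, a group counted after the values were seen. Of these 24 (48%) were higher and 2 (4%) lower in both strains, against 23.3% and 35.3% of the 485 genes. Of the 31, 12 had at least 500 counts in both WT pools, and the others had fewer in at least 1 of them.

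**Figure D4:**
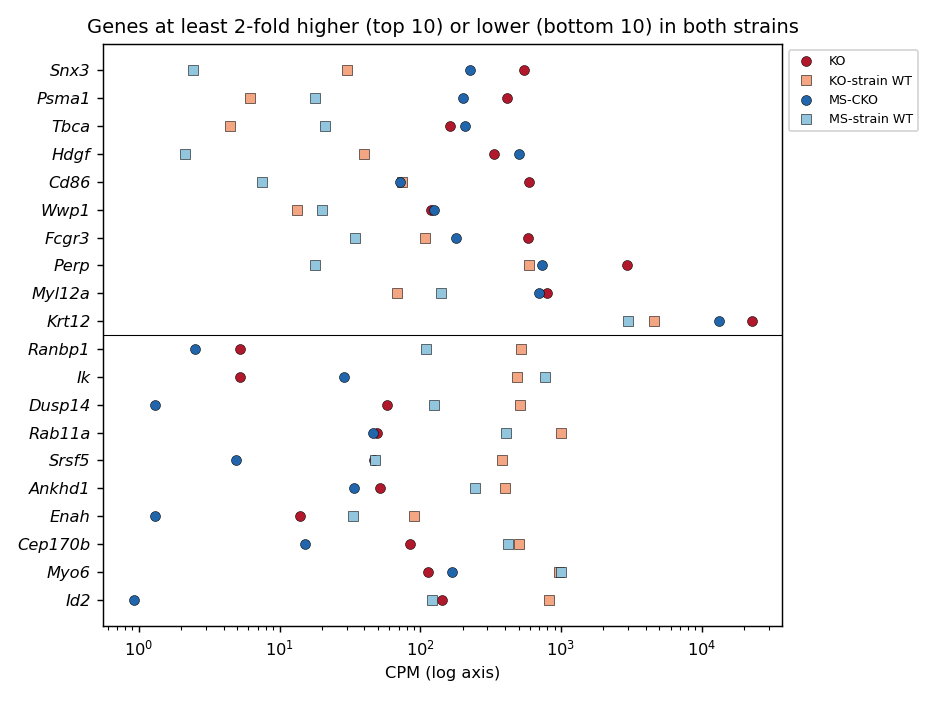
Level (CPM, log axis) of the 10 genes with the highest and the 10 with the lowest null/WT ratios in both strains, with 1 point per pool. Cd86 (71.6 CPM in MS-CKO, 74.3 CPM in KO-strain WT) and Id2 (143 CPM in KO, 122 CPM in MS-strain WT) are the genes drawn whose null and WT pools overlap.

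The 10 genes with the lowest ratios were Ranbp1, Ik, Dusp14, Rab11a, Srsf5, Ankhd1, Enah, Cep170b, Myo6 and Id2. Ranbp1, a partner of the Ran GTPase of nuclear transport, stood at 5.22 CPM in KO, 518 CPM in KO-strain WT, 2.50 CPM in MS-CKO and 110 CPM in MS-strain WT. Ik, a protein of the spliceosome, stood at 5.22, 486, 28.7 and 774 CPM. Both genes were low in each null pool and high in each WT pool. Rab11a, the GTPase of recycling endosomes, stood at 49.6, 995, 46.4 and 403 CPM. Myo6, a myosin of endocytic traffic, stood at 113, 962, 169 and 994 CPM, so its levels were alike across the strains within each genotype. Id2, an inhibitor of helix-loop-helix factors needed for several dendritic cell lineages, stood at 143, 816, 0.926 and 122 CPM, with 10 counts in MS-CKO, and its KO pool lay above the MS-strain WT pool. The remaining 5 (Dusp14, a phosphatase of MAP kinases; Srsf5, a splicing factor; Ankhd1; Enah, an actin regulator; and Cep170b) had ratios of 0.114 to 0.166 in the KO strain and 0.0103 to 0.138 in the MS strain.

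Of the Toll-like receptor, NF-κB and cytokine list, 7 genes were seen in all 4 pools, with 2 higher in both strains and 2 lower, against 23.3% and 35.3% of the 485 genes. Nfkb2, a subunit of NF-κB, had ratios of 0.062 and 0.212, and Nfkbiz, a nuclear regulator of NF-κB, 2.22 and 2.19. Icam1, an adhesion ligand for leukocytes outside that list, had ratios of 0.269 and 0.00893. Lilrb4a, an inhibitory receptor of myeloid cells, stood at 412, 2724, 199 and 1025 CPM, and Laptm5, a lysosomal protein of leukocytes, at 30.6, 1261, 142 and 313 CPM. In both the null pools lay below the WT pools. At the threshold of 2-fold, Mcl1, a survival factor of the Bcl2 family (0.419 and 0.4998), and Krt6b, an epithelial keratin (2.08 and 2.84), lay just inside. Msn, which encodes moesin (0.169 and 0.505), and C1qa, a chain of complement C1q (1.96 and 49.3), lay just outside.

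Tested across the strains, few genes passed. The quasi-likelihood test of edgeR with strain as a block left 1 residual degree of freedom and called 4 of 3493 genes higher (0.115%) and 2 lower (0.0573%) in the null pools after Benjamini-Hochberg adjustment. Without adjustment it called 25 higher (0.716%) and 6 lower (0.172%). The higher genes were Krt12 (log2 change 2.59, SE 0.29, edgeR adjusted p = 1.84e-15), Aldh3a1 (1.76, SE 0.32, 3.59e-05), Malat1 (5.16, SE 1.06, 9.38e-04) and Krt5 (3.20, SE 0.66, 0.00104). Each of the 3 epithelial genes was higher in 2 of 2 strains. Malat1, an abundant nuclear long noncoding RNA, was not: it had 9041 counts in KO against 3 in KO-strain WT, but 79527 in MS-CKO against 79385 in MS-strain WT, a ratio of 0.609 there, so its call rests on the KO-strain WT pool.

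The 2 lower genes were mitochondrial. ND4, a subunit of respiratory complex I encoded in the mitochondrial genome, stood at 18956 CPM in KO, 40008 CPM in KO-strain WT, 19463 CPM in MS-CKO and 63930 CPM in MS-strain WT. Its log2 change was -1.03 (SE 0.12, edgeR adjusted p = 1.72e-15), and ND2, another subunit of the complex, changed by -1.34 (SE 0.33, edgeR adjusted p = 0.0316) from 4526 to 1321 CPM in the KO strain and from 20975 to 6822 CPM in the MS strain. ND4 did not overlap between the groups, while ND2 did, being higher in MS-CKO than in KO-strain WT. When only the 485 genes seen in all 4 pools were tested, neither passed. The edgeR adjusted p was then 0.472 for ND4 (SE 0.50) and 0.305 for ND2. Together the mitochondrially encoded genes took 4.13% and 5.35% of counts in the null pools and 10.7% and 12.3% in the WT pools. Not every member went that way. DESeq2, used as an alternative test, called ND3, another subunit of the complex, higher (log2 change 10.8, SE 3.90, DESeq2 adjusted p = 0.0397). The median log2 change of all tested genes was 2.30, and that of the 30 tested epithelial genes was 4.87.

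The calls differed between fits. The prior of edgeR had infinite degrees of freedom, so it gave each gene a spread shared with other genes rather than its own. The common dispersion was 5.52. The SE still differed widely, for example 0.12 for ND4 (average log2 CPM 15.1) and 5.77 for Sdc1 (8.83). The 6 called genes were abundant, with an average log2 CPM of 12.2 (Krt5) to 15.1 (ND4). Without the strain block no gene passed the adjusted p (405 higher and 24 lower unadjusted). Leaving out the KO, KO-strain WT, MS-CKO or MS-strain WT pool left 2, 0, 4 and 128 calls, in that order. Among the 485 genes seen in all 4 pools, edgeR called 4 higher (0.825%), namely Krt12, Krt5, Perp and Krt6a, a keratin of activated epithelium. It called 0 lower there (29 higher, or 5.98%, and 15 lower, or 3.09%, unadjusted). Aldh3a1 did not pass in that fit (edgeR adjusted p = 0.190). DESeq2 called 579 genes higher (16.6%) and 30 lower (0.859%), none of them one of these 6, and 516 of the 579 had 0 counts in both WT pools. With size factors from positive counts it called 0 higher and 14 lower.

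The class II list was lower in sum in both null pools, while its members were divided and none passed the test. Summed over 16 genes of class II presentation, the level was 18472 CPM in KO against 50800.3 CPM in KO-strain WT and 8374 CPM in MS-CKO against 14181 CPM in MS-strain WT, ratios of 0.364 and 0.591 (0.465 and 0.765 with TMM). Of the 8 members with counts in all 4 pools, 3 were higher in both strains and 4 lower, under library totals and TMM alike, against 23.3% and 35.3% of the 485 genes, and H2-Ab1, a class II beta chain, was divided (0.516 and 1.01). Cd74, the invariant chain that guides class II molecules, stood at 3848, 18922, 1755 and 4633 CPM. H2-Aa, a class II alpha chain, stood at 2098, 11272, 1999 and 3443 CPM, and H2-DMb1, which helps to load peptides, at 571, 1733, 239 and 688 CPM. For each of these the null pools lay below the WT pools. None passed the adjusted p in edgeR or DESeq2, the smallest being that of Cd74 (log2 change -1.49, SE 0.46, edgeR adjusted p = 0.467, unadjusted 0.00134). H2-Eb1, another beta chain, was lower by nearly the same ratio in both strains, 0.548 and 0.545. The 3 higher members were Cd86, Ctss, the cathepsin that trims the invariant chain (26.5 and 2.10), and Ifi30, a lysosomal reductase (2.17 and 1.08). The phagocyte list was also lower in the same pools (0.721 and 0.842, but 0.921 and 1.09 with TMM), and the epithelial list higher, and their part in these ratios was not tested.

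Within the phagocyte list, 4 of the 14 genes seen in all pools were higher in both strains and 6 lower (4 and 4 with TMM), against 23.3% and 35.3% of the 485 genes (31.8% and 25.2% with TMM), and 0 of 26 tested passed the adjusted or the unadjusted p in edgeR. DESeq2 called 1, Irf8, a factor of dendritic cell and monocyte development, which was at 0 in both WT pools. By at least 2-fold, 3 of the 14 were higher in both strains and 1 lower, against 6.39% and 12.8% of the 485 genes. The higher ones were Fcgr3 (5.37 and 5.26), Lyz2 (2.54 and 3.92) and Ctss (26.5 and 2.10). The lower one was Laptm5 (0.0243 and 0.452). Apoe, the lipid carrier of macrophages, stood at 4064, 7838, 2415 and 3777 CPM. Its ratios were 0.519 and 0.639, and the KO pool lay just above the MS-strain WT pool. Fcer1g, the signalling chain shared by Fc receptors, stood at 952, 4504, 515 and 921 CPM. It was lower in the null pool of each strain, but here too the KO pool lay just above the MS-strain WT pool. Tyrobp, the DAP12 adaptor of myeloid receptors, went opposite ways, with 2544, 32.3, 130 and 662 CPM. Of the Fc receptor and ITAM signalling genes, 4 were seen in all pools, of which 1 was higher in both strains (Fcgr3) and 2 lower (Fcer1g and Lilrb4a), beside the same 23.3% and 35.3%.

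Chemokine ligands did not share a direction. Of 9 seen in all 4 pools, 2 were higher in both null pools and 2 lower, against 23.3% and 35.3% of the 485 genes. Cxcl2, a neutrophil attractant, stood at 4615, 3978, 1290 and 1093 CPM, so the KO-strain pools were high and the null pools only slightly above WT (1.16 and 1.18). Ccl2, a monocyte attractant, had ratios of 1.26 and 4.83. Cxcl16, a scavenger receptor and ligand of CXCR6, stood at 102, 789, 70.4 and 221 CPM, below WT in both null pools. The median log2 ratio of the 9 was -1.34 in the KO strain and 1.28 in the MS strain, since ligands such as Ccl4, Ccl7 and Ccl12 were lower in KO and higher in MS-CKO. In edgeR 0 of 12 chemokine ligands passed the adjusted or the unadjusted p, and DESeq2 called 1 (Ccl6, at 0 in both WT pools).

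Immediate early and heat shock genes, which are known to rise quickly when tissue is handled, were abundant in every pool. They summed to 33914 CPM in KO, 37744 CPM in KO-strain WT, 28937 CPM in MS-CKO and 21889 CPM in MS-strain WT, against 4157 to 8097 CPM in the spleen pools. The CRMC pools were all above the spleen pools, and null and WT pools overlapped. Of 23 seen in all 4 pools, 7 were higher in both strains and 4 lower, against 23.3% and 35.3% of the 485 genes (10 and 3 with TMM, against 31.8% and 25.2%). Junb, an AP-1 subunit, stood at 3034, 2203, 3857 and 1201 CPM, and Fosb, another, at 1162, 512, 1116 and 612 CPM, both without overlap. Of the MHC class I and interferon genes 5 were seen in all pools, with 3 lower in both strains (2 with TMM), against 35.3% (25.2%) of the 485 genes. B2m, the light chain of class I molecules, was lower at 0.365 and 0.561, and H2-K1, a heavy chain, was higher at 6.37 and 1.20.

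The study named targets of the cluster in Fc gamma receptor phagocytosis, chemokine signalling and TGF-β signalling. It chose them on these libraries, so their direction is not independent evidence. Of 12, 16 and 9 genes named, 9, 10 and 5 had at least 10 counts in a pool of each strain. Higher in the null pool of both strains were 4, 7 and 4 of them and lower none, beside 49.0% higher and 11.1% lower among all such genes, and none passed the adjusted or the unadjusted p in edgeR. Those that DESeq2 called higher included Rac1, Ppp2ca and Tgfbr1, none of which it called with size factors from positive counts. Rac1, a GTPase of actin remodelling, had 1710 counts in KO, 14 in KO-strain WT, 7480 in MS-CKO and 2 in MS-strain WT. Tgfbr1, the type I receptor of TGF-β, had 608 and 1421 counts in the null pools and 0 in both WT pools, at least 109-fold and at least 288-fold higher. Ppp2ca, a catalytic subunit of protein phosphatase 2A, had 897 and 1232 counts in the null pools and 0 in both WT pools. These genes were read in the null pools and nearly or wholly missing in WT.

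**Figure D5:**
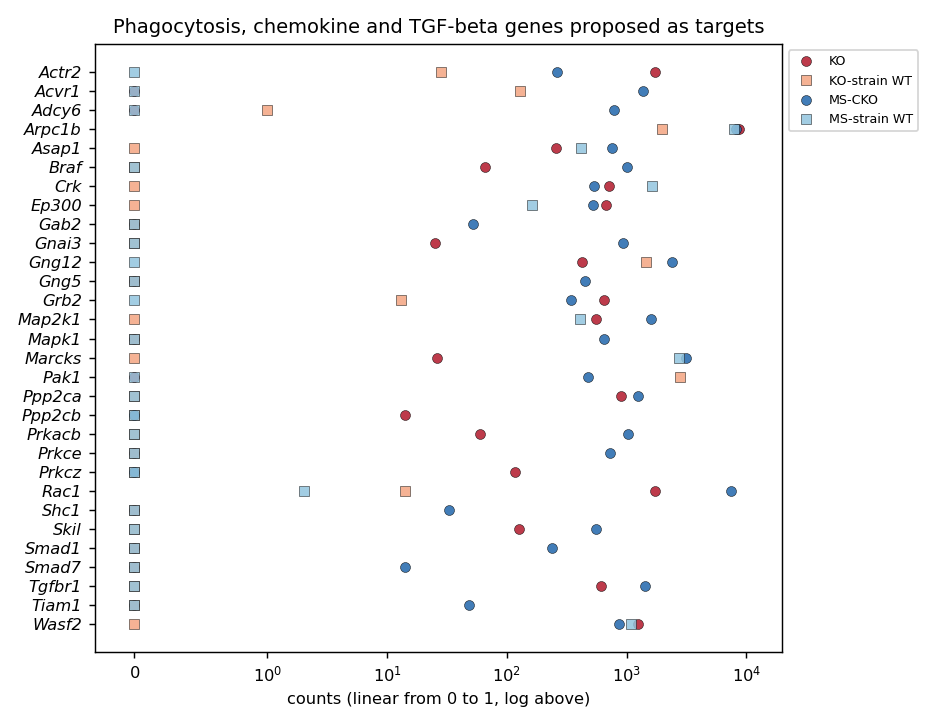
Counts in the 4 CRMC pools (axis linear from 0 to 1 and log above) of 30 genes that the study named as targets, 1 point per pool. Arpc1b and Rac1 are the genes drawn with no pool at 0, and Arpc1b alone has at least 10 counts in all 4.

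Arpc1b, a subunit of the actin-nucleating Arp2/3 complex, was the only gene of these lists with 10 counts in all 4 pools. It had 8709 counts in KO, 1979 in KO-strain WT, 8155 in MS-CKO and 7826 in MS-strain WT, which is higher in the KO strain (2.36) and lower in the MS strain (0.634). Crk, an adaptor of phagocytic signalling, and Pak1, a kinase downstream of Rac, were also divided: Crk had 708, 0, 532 and 1612 counts and Pak1 0, 2801, 479 and 0 counts.

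Sites for the 3 microRNAs were counted in the longest annotated 3′ UTR of each gene (GENCODE on GRCm38). The sites of Rac1, Tgfbr1 and Wwp1 are shown as examples of genes that were higher in both null pools and hold a site. Other genes, such as Perp and Ppp2ca, met the same description. The study took Rac1 and Tgfbr1 from predicted targets among genes that rose, so their sites are not independent evidence. They are on the strand of the gene, with the letters that pair with the seed in capitals.
Rac1, miR-182-5p: agattaaaaaTTGCCAAaataccttct
Tgfbr1, miR-96-5p: ttttcacattGTGCCAAtggaatggaa
Tgfbr1, miR-182-5p: gttgtttctaTTGCCAAtcaaagactt
Wwp1, miR-183-5p: aagtgcatatGTGCCATgttcttctcc
The sites lie at chr5:143506700-143506706 (minus strand), chr4:47414377-47414383 and chr4:47413248-47413254 (plus strand) and chr4:19611316-19611322 (minus strand). Of 20984 genes with such a UTR, 23.0% held at least 1 of the 7-base sites, on the sense strand only. Among genes seen in all 4 pools the share was 21.2%. It was 13.8% (15 of 109) among those higher in both strains and 23.3% (37 of 159) among those lower, whose median UTR was 504 and 871 nucleotides long. Among genes at 10 counts in both null pools and 0 in both WT pools it was 28.6% (211 of 739), with a median UTR of 1104 nucleotides. For the reverse set, at 0 in both null pools, it was 30.8% (8 of 26). The genes tested by edgeR stood at 27.9% (931 of 3342), near both, with a median UTR of 1218.5 nucleotides. Of the genes with the highest ratios, Wwp1 and Perp hold a site for miR-183-5p, and the other 8 of the 10 hold none. Of the 10 with the lowest ratios 4 hold a site (Dusp14, Enah, Cep170b and Myo6). A match is a description of the letters, and no match says nothing of sites elsewhere.

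Genes that switched between null and WT pools were mostly of the null side. Of the 7588 genes, 768 (10.1%) had at least 10 counts in both null pools and 0 in both WT pools, and 30 (0.395%) the reverse. The null side was led by Ndufs7, a complex I subunit with 3539 and 3220 counts, Cct2, a chaperonin subunit with 3623 and 3206, and Sdc1, the syndecan of epithelial surfaces with 3158 and 8678. The WT side was led by Ninj1, which drives rupture of the plasma membrane in dying cells, with 3152 and 2363 counts, and Zfand4 with 1818 and 2377. It also held Ifnar1, a chain of the type I interferon receptor (1103 and 2293), and Nfil3, a transcription factor of lymphoid and dendritic cells (1158 and 2536). All of these had 0 counts in the opposite pools, in libraries where the null pools hold reads from more than 2-fold as many genes.

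Sorted spleen cells of the same genotypes were used to test whether the null effect in cornea differed from that in spleen. In 1 fit of the 8 pools (strain, tissue, genotype and their terms, 2 residual degrees of freedom), 0 of 10226 genes passed the adjusted p of edgeR, with 1043 higher (10.2%) and 216 lower (2.11%) in cornea minus spleen at an unadjusted p under 0.05. DESeq2 called 108 higher (1.06%) and 122 lower (1.19%). The smallest edgeR adjusted p was 0.386. The spleen pools alone gave 0 calls among 9285 genes (98 higher and 44 lower unadjusted). ND2 differed between the tissues by -1.64 on the log2 scale (edgeR adjusted p = 0.741) and ND4 by -0.99. Leaving out 1 CRMC pool left cornea without a residual degree of freedom, so the spread came from the spleen pools only. Leaving out 1 spleen pool did the reverse. The calls of those fits are therefore not read as differences between the tissues.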

How the data were processed

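The authors prepared QuantSeq 3′ mRNA FWD libraries from Csf1r-EGFP+ cells sorted from pooled corneas anterior to the limbus, used STAR for alignment to mm10 and HTSeq for gene counts, which the submitters' notes name too. Versions and annotation: not given in the sources used here. Deposited values are whole-number counts per gene, with no normalization, over 35976 gene rows. The 4 CRMC columns, 4 spleen columns and 3 whole cornea columns (matched by their library numbers) were used, and 43 columns of other libraries were not. The KO column carries CKO in its name, and the sample title was followed. The table turned 27 gene names into dates (at most 0.105% of a CRMC pool's counts).

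Counts were divided by library totals (CPM). Genes with at least 10 counts in all 4 pools were compared as null/WT ratios within each strain, with 95% exact binomial intervals. The test was the quasi-likelihood F test of edgeR 4.0.16 (under R 4.3.3 and with limma 3.58.1), after filterByExpr and TMM scaling, with strain as a block, Benjamini-Hochberg adjustment over all genes tested and a threshold of 0.05. An SE was obtained as the absolute log2 change over the root of its F value. Since each group of a strain has 1 pool, the spread is the difference of the null effect between strains. The prior of edgeR shared that spread over genes. A p-value therefore does not measure how well the 2 strains match for its own gene. Alternatives were DESeq2 1.42.0, RLE factors, library totals, TMM without epithelial and stromal lists, other count minimums and folds, no strain block, a fit with spleen and leaving out each pool. Named genes were up to 10 with the largest ratio each way among genes at least 2-fold the same way in both strains, all genes past the adjusted p, the targeted and Cre genes, Csf1r, and members of each list that have counts in all 4 pools and the smallest p or the highest level. Genes chosen after their values were seen are Muc4 and Ly6g6c, Tyrobp, Cx3cr1, Adgre1 and Ptprc, the neutrophil list's sum, Icam1, the Rpl and Rps names, Laptm5, Crk and Pak1, and those seen only in null or only in WT pools. Not every gene of the study's target lists is reported here. The comparison, the lists and the rules were chosen with earlier results of these data known.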

Additional observations from a re-analysis of the deposited data

Results flagged for a closer look

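Malat1 and Tyrobp went opposite ways in the strains, and the difference between strains was not tested, since each strain has 1 null and 1 WT pool. Malat1 had a null/WT ratio of 1617 in the KO strain and 0.609 in the MS strain. Tyrobp had a ratio of 78.8 in the KO strain and 0.196 in the MS strain. In both the KO-strain WT pool held few counts (3 of Malat1), and that pool was also the one with the fewest genes.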

How the results depend on the processing

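The count of genes past the adjusted p, 6 in all, was 4 to 9 with RLE factors, library totals, TMM without the epithelial and stromal lists, no filter on low counts or 10 counts in all 4 pools. It was 609 with DESeq2, 14 with DESeq2 size factors from positive counts, 0 without the replicate block, 0 in the fit with the spleen pools, 31 unadjusted, and 0 to 128 when a pool was left out (without the strain block, since 3 pools leave it no residual degree of freedom). The size factors from positive counts were run first; the default ones, taken as planned, were chosen after that result had been seen, and both are given. Malat1 turned to a log2 change of -0.095 without the replicate block, -1.14 without the KO-strain WT pool and -1.74 without the MS-CKO pool, with a range of -1.74 to 12.6 as each pool was left out. ND2 turned to 0.73 without the MS-strain WT pool, with a range of -3.39 to 0.73. Krt12, Krt5 and Aldh3a1 kept their direction in each fit that held them. The cause of these changes was not tested. The cornea and spleen difference gave 230 genes with DESeq2, 125 with size factors from positive counts, 1259 unadjusted, and 3 to 1387 with a pool left out, but 0 with RLE factors, without the replicate block or with 10 counts in all 8 pools.

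Genes at least 2-fold higher in both strains (31) became 56 with TMM, 1090 at 10 counts in at least 2 pools with 0.5 CPM added, 57 at 1.5-fold, 12 at 500 counts (added after seeing the data) and 95 to 134 in 1 strain alone. Those lower (62) became 39, 158, 97, 30 and 114 to 192. At 500 counts, 63 of 281 genes were higher and 113 lower in both strains at any size. The epithelial ratio was 4.92 for Krt12 alone, 2.92 without Krt12 and 3.17 without mitochondrially encoded genes in the KO strain, and 4.45, 4.07 and 3.85 in the MS strain. Pools of few detected genes, 1 per genotype and strain, limit all of these values.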
